A study of Homo sapiens with 8 samples.

Results

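The retained introns described here were the shortest ones, with fewer than 150 nt between the exon that ends and the exon that starts. Each was an RI event in the splicing tables of U2OS cells, a human osteosarcoma line. An RI event counts, for an intron, the reads of transcripts that keep it (inclusion) and of transcripts that have it spliced out (skipping). Of 3812 such introns in the tables of the study, 1214 were shorter than 150 nt. The table of whole-cell RNA held 1180 of them, that of cytoplasmic RNA held 534, and 500 stood in both. The choice used the length alone and no read.

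All cells were transfected with siRNA at 20 nM for 48 h. Control cells received siRNA against EGFP, and CHERP-depleted cells received siRNA #2 against CHERP, so that CHERP depletion rests on 1 siRNA sequence. Poly(A)+ RNA was taken either from whole cells or from the cytoplasm, the supernatant of an NP-40 lysis, with 2 biological replicates of every combination, which gave 8 libraries. CHERP is a nuclear protein with an arginine/serine-rich region that associates with factors of the U2 snRNP, and the study asked how its loss changes splicing.

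Reads on the exon events of CHERP lay between 77 and 103 in the whole-cell libraries with EGFP siRNA and between 3 and 10 in those with CHERP siRNA, and between 21 and 31 and between 3 and 4 in the cytoplasm. Of 11 genes chosen as markers of osteosarcoma or mesenchymal cells, 8 had exon events in whole cells and 7 of these held at least 10 reads in each library. COL1A1, COL1A2 and SPARC had no event there, which does not give their level, since the tables hold alternative events only. Of 5 epithelial markers only CDH1 had events, with 1 read in each control whole-cell library and 15 and 22 in the CHERP siRNA libraries. The summed reads of the osteosarcoma markers were 76834 to 88366 and then 93665 to 103350, and the part of either in the results was not tested. None of 4 blood and 3 muscle markers had any event. All RI events together held 1199882 to 1434335 reads in a whole-cell library and 186363 to 232928 in a cytoplasmic one. The short introns took 26.8 to 29.1% of the former and 28.7 to 29.5% of the latter.

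A short intron is thought to be recognised as a unit, by factors that meet across the intron itself, whereas exons between long introns are recognised across the exon. The U1 snRNP pairs with the 5′ splice site, which starts with GT or less often GC, and the U2 snRNP is placed near the 3′ splice site, which ends with AG. An intron left in an mRNA often brings a stop codon or shifts the reading frame, and such an mRNA tends to stay in the nucleus or to be degraded during translation. In a 5′ or 3′ untranslated region (UTR) a retained intron does not alter the protein sequence.

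Sequences of 8 of the introns that passed the test between the siRNAs in whole cells are shown first. Those calls leaned on single libraries, as given below. They are the 8 with the lowest false discovery rate (FDR) that lie between coding exons, read 5′ to 3′ on the transcribed strand of GRCh37, the build named hg19 in the study. Capitals mark the first 2 and the last 2 bases, where the splice sites lie.
VDAC2, chr10:76978974-76979061, plus strand, 88 nt: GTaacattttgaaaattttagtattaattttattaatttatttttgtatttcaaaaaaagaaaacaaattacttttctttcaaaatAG
HNRNPH1, chr5:179044934-179044989, minus strand, 56 nt: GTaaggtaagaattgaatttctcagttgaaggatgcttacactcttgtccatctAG
EIF5A, chr17:7214801-7214896, plus strand, 96 nt: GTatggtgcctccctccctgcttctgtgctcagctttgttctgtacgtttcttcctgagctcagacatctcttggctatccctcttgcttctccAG
MARS, chr12:57910121-57910217, plus strand, 97 nt: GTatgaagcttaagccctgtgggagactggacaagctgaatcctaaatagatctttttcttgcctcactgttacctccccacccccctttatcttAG
ITGA3, chr17:48152891-48152962, plus strand, 72 nt: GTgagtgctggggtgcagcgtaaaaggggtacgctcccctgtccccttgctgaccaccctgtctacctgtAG
NDUFV1, chr11:67375950-67376022, plus strand, 73 nt: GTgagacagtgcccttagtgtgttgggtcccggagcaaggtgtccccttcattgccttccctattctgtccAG
LZTR1, chr22:21351091-21351174, plus strand, 84 nt: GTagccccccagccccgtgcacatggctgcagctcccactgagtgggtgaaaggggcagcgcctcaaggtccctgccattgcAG
CTPS1, chr1:41474387-41474465, plus strand, 79 nt: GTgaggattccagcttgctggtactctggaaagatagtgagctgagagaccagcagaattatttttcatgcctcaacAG

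Across these introns the G and C content ran from 13.6% in VDAC2 to 66.7% in LZTR1. With 61.1%, the intron of ITGA3 was close to the median of the group, 61.2%, and that of VDAC2 lay far below it.

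Other sequences mark the limits of the group. The shortest intron with GT and AG ends between coding exons was that of FAM65A, with 50 nt. The intron of RBM8A, whose protein is a core subunit of the exon junction complex, is shown because its counted inclusion differed widely between the fractions and because it ends 3 nt beyond another listed intron. The 26-nt interval of XBP1, a transcription factor of the unfolded protein response, is the place where the endoribonuclease IRE1 cuts the mRNA. It has no GT and AG ends and is printed without capitals. The last 2 were chosen after their values were seen.
FAM65A, chr16:67574405-67574454, plus strand, 50 nt: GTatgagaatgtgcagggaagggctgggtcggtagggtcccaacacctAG
RBM8A, chr1:145508076-145508209, plus strand, 134 nt: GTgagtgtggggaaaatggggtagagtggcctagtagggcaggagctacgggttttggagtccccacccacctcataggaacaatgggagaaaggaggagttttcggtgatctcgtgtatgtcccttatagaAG
XBP1, chr22:29192110-29192135, minus strand, 26 nt: ctcagactacgtgcacctctgcagca

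The 1214 introns came from 880 genes, of which 219 held more than 1. RHOT2, a mitochondrial GTPase, held the most with 9, followed by TECR, an enzyme of fatty acid elongation, with 7. In 163 cases the intron overlapped another of the group. The median length was 93 nt and the quartiles were 81 and 115 nt. Only 11 were shorter than 50 nt, and some of these were gaps of 1 to 4 nt rather than introns.

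In GENCODE 44, 1035 of the 1214 (85.3%) lay between coding exons. A further 65 lay in noncoding transcripts, 61 in the 5′ UTR and 41 in the 3′ UTR, and 12 matched no annotated intron. The coding share was 78.3% among retained introns of 150 nt to under 1000 nt and 73.1% among those of 1000 nt or more. Of the 1035 coding introns, 418 would shift the frame and bring a stop codon, 277 would shift it without a stop inside the intron, and 206 would keep the frame with a stop. The other 134 (12.9%) would keep the frame with no stop, against 3.72% of the coding introns of 150 nt to under 1000 nt.

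Among the 1203 introns of at least 50 nt, 98.4% had GT and AG ends and 1.5% had GC and AG ends. Their median G and C content was 61.2%, with quartiles of 52.8 and 67.6%. It was 55.3% for the 2063 retained introns of 150 nt to under 1000 nt and 45.3% for the 535 of 1000 nt or more. Runs of GGG on the transcribed strand came to a median of 3.9 per 100 nt in the short introns, 2.9 in the middle class and 1.7 in the long class. These are descriptions of 3 sets of introns, and G and C content and GGG runs are not separate measures.

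The 5′ splice sites of the short introns started with GTGAG in 37.2%, against 31.0% of all 3801 retained introns of at least 50 nt. They started with GTAAG in 13.2%, against 16.3%. Over the last 3 exon bases and first 6 intron bases, the number of 9 positions that match CAGGTAAGT, the sequence fully paired with U1 snRNA, had a median of 6 in every length class. The 20 bases before the last 3 were 70% pyrimidine at the median, also in every class. The letters CTNAC, a form of the branch point, stood between 50 and 10 bases before the end in 25.4% of the short introns and in 23.8% of all. Only 2 of the 1214 began like a U12-type intron, with ATATCCTT or GTATCCTT.

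In 4 of the short introns a microRNA gene lay inside, namely MIR4649 in AEBP1, MIR3620 in ARF1, MIR1234 in CPSF1 and MIR1236 in NELFE. Their levels in control whole cells were 0.0474, 0.0117, 0.0146 and 0.00662. The level, or inclusion level, sets the reads of the form that keeps the intron against those of both forms of the event, each divided by its effective length, and runs from 0 to 1.

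A level is not always a measure of retention. Of the 1214 introns, 99 held a shorter listed intron that starts or ends at the same base, in an RI event or in an event of alternative 5′ or 3′ splice sites. Pairs were then compared whose inner intron had 50 or more skipping reads in the 2 control libraries together. In 29 such whole-cell pairs that differ by 4 nt or more, the longer intron had a median of 0.492 inclusion reads for each skipping read of the inner one, whereas the inner intron itself had 0.0431. In the cytoplasm the values were 0.944 and 0.0110 over 15 pairs. Where the pair differs by 1 to 3 nt, the longer intron had 0.00935 in whole cells and 0.941 in the cytoplasm, over 3 pairs each. For the compared pairs, retention and splicing at the inner site thus cannot be told apart, and the counting of the closest pairs differed between the fractions. The rest of the 99 introns were not in this comparison. Some of their inner introns had few or no skipping reads, as in AKAP8L with 0 and 2 in control whole cells. The other 1115 hold no shorter intron listed in those tables, and the counts below are also given for them. Some of them lie inside a longer listed intron instead, and their level leaves out transcripts spliced at the longer one. In STUB1 a 116-nt intron had 26 and 23 inclusion reads and 1 skipping read in each control whole-cell library. The 139-nt intron around it had 226 and 150 skipping reads there. A high level among the 1115 is thus not always retention either.

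Many of the short introns had levels near 0, and a smaller set had levels near 1. Requiring 10 or more reads per library on average, 990 could be described in whole cells and 400 in the cytoplasm, leaving out 190 and 134. In control whole cells 476 of the 990 had a level under 0.05 and 105 had a level over 0.9, and 22 of the 105 held a shorter listed intron. The median in the 2 control libraries was 0.0548 and 0.0492, and in the CHERP siRNA libraries it was 0.0384 and 0.0457. In the cytoplasm the medians were 0.0222 and 0.0271 for the control and 0.0147 and 0.0150 for CHERP-depleted cells.

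Levels differed widely with the place in the transcript, which was read from an annotated transcript that splices out that very intron. This need not be the main transcript of the gene, and the same bases can have another place in others. The 114-nt intron of RHOT2, in the 3′ UTR of RHOT2-205, starts at the same base as the 82-nt coding intron 10 of RHOT2-201. In control whole cells, the 867 short introns between coding exons had medians of 0.0408 and 0.0350 in the 2 libraries. The 49 in 5′ UTRs had a median of 0.821 in both libraries, the 31 in 3′ UTRs medians of 0.931 and 0.924, and the 35 in noncoding transcripts medians of 0.877 and 0.893. Thus 87 of 867 coding introns but 36 of 49 introns of 5′ UTRs and 23 of 31 of 3′ UTRs had a level over 0.5. Among introns that hold no shorter listed one, these counts were 67 of 810, 32 of 44 and 19 of 27. Coding introns had the lowest medians in the longer classes too, with 0.0666 and 0.0746 for the 1380 of 150 nt to under 1000 nt, against 0.607 and 0.672 for the 103 in 5′ UTRs. In the class of 1000 nt or more they were 0.113 and 0.117 for 357 coding introns and 0.331 and 0.259 for 14 in 5′ UTRs, which lay far below the short introns of 5′ UTRs. An RI event is listed only where annotated or assembled transcripts show both forms, so these shares describe listed introns and not all introns of such regions.

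**Figure D1:**
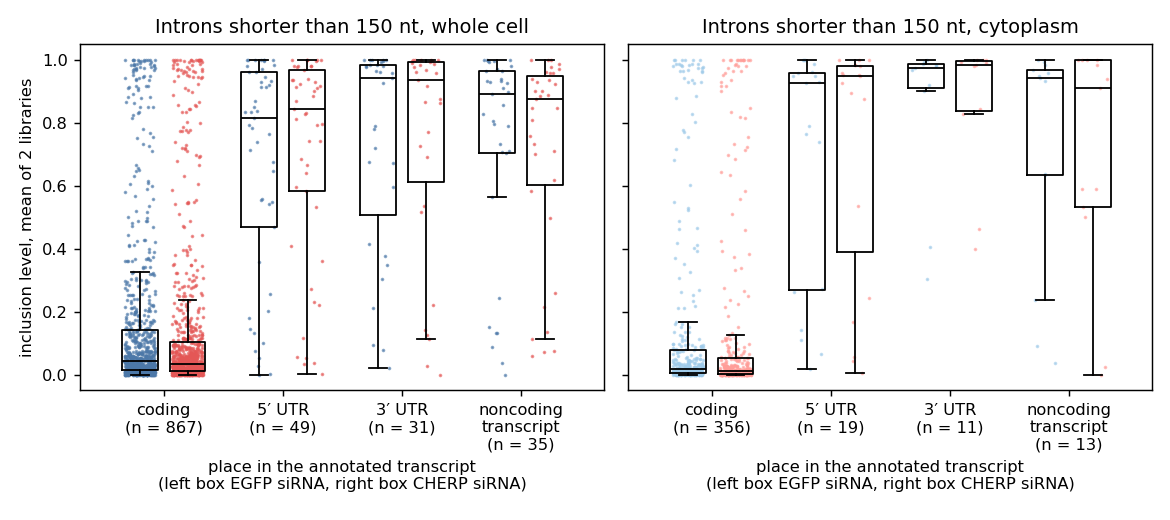
Inclusion level (0 to 1, mean of 2 libraries) of each retained intron shorter than 150 nt, by its place in the annotated transcript, in whole cells (left panel) and the cytoplasm (right panel), for introns that average 10 or more reads per library. Boxes give quartiles and median, whiskers reach the farthest point within 1.5 box lengths, and points are introns. The median of the 867 coding introns of whole cells sits near 0, while those of the other classes sit far above it.

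Within the group, the levels differed little with length. The medians in the 2 control whole-cell libraries were 0.0686 and 0.0466 for 210 introns under 80 nt, 0.0445 and 0.0421 for 369 of 80 to 99 nt, and 0.0611 and 0.0582 for 411 of 100 nt to under 150 nt. Spearman's rho between level and length was 0.0621 over 990 introns, and it was -0.276 between level and read number, which share the reads of the skipping form. At the length limit itself, 54 introns of 140 nt to under 150 nt had medians of 0.0566 and 0.0559, and 65 of 150 nt to under 160 nt, outside the group, had medians of 0.0757 and 0.0584.

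The introns with the most reads belonged to genes of very high expression and were almost never kept. EEF1A1, the factor that brings aminoacyl-tRNA to the ribosome, held the 2 deepest, of 108 and 89 nt on chromosome 6. The 89-nt intron had levels of 0.0036 and 0.0033 in control whole cells and 0.00287 and 0.00322 after CHERP depletion, from 213 to 228 inclusion reads in a library. The intron of the glycolytic enzyme gene GAPDH had levels of 0.00288 and 0.00211 and then 0.00199 and 0.00228. That of RPLP0, a protein of the ribosomal stalk, had 0.00427 and 0.00456 and then 0.00427 and 0.00495. For GAPDH and RPLP0 the libraries of the siRNAs overlapped. GENCODE names 48 pseudogenes after EEF1A1 and 63 after GAPDH, and reads from near-identical copies could be split in the counting.

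At the bottom, among introns that average 100 or more reads, those of PTBP1, CCDC90B, PSMD12 and FARSA had no inclusion read in either control library. PTBP1 is a splicing repressor, PSMD12 a subunit of the proteasome and FARSA a phenylalanyl-tRNA synthetase subunit. With 284 and 250 skipping reads at PTBP1, 3 inclusion reads would have given levels of 0.00638 and 0.00724, a limit that covers counting error only. The ribosomal protein gene RPL14 followed with 0.000338 and 0.000283, from 5 inclusion reads in each library.

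At the top, the introns of EIF2A (83 and 87 nt), TBRG4, MAGED2 and TMUB2 had no skipping read in either control library. The 2 introns of EIF2A, an initiation factor, start at the same base and had the same numbers of inclusion reads in whole cells. The 54-nt interval of MAGED2, a melanoma antigen family gene, on chromosome X was kept in every one of 1006 and 1109 control reads and had 1 skipping read in all 4 whole-cell libraries. TBRG4, a mitochondrial RNA-binding protein, had 403 and 482 inclusion reads at an intron of its 5′ UTR.

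The 3 shortest, with ties at 1 nt taken by name, were gaps in DCAF7, HSD17B7P2 and OAZ1. OAZ1, ornithine decarboxylase antizyme, is translated with a programmed frameshift, and its 1-nt gap lies within the reading frame. It had levels of 1 and 0.975 in control whole cells and 0.988 and 1 after CHERP depletion, so nearly all reads carried the base. DCAF7 showed the reverse, at 0 and 0.0326 and then 0.0284 and 0. The 26-nt interval of XBP1 had levels of 0.891 and 0.848 in control cells and 0.858 and 0.82 in CHERP-depleted cells, from 50 to 77 inclusion reads and 7 to 11 skipping reads in a library. The groups overlapped and the FDR was 0.882.

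The comparison of the siRNAs in whole cells gave few short introns. Inclusion rose in 4 of the 1180 (increased intron inclusion, III) and fell in 10 (decreased intron inclusion, DII) at an FDR under 0.05. Across all 3717 RI events the same test called 1.37% higher and 1.88% lower, and among the short introns these shares were 0.339 and 0.847%. The other classes had larger shares, 1.39 and 2.04% of the 2012 introns of 150 nt to under 1000 nt and 3.62% each way of the 525 of 1000 nt or more. The median reads were 50.1 per library for the short introns and 64 for all, so depth was not equal between them, and its part in the shares was not tested.

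Among the 990 short introns with at least 10 reads, 581 had a lower and 409 a higher mean level in CHERP-depleted whole cells, with a median difference of -0.00345. The median over all 3227 RI introns with such reads was -0.000924. For the same 990 introns the median gap between the 2 libraries of a group was 0.0234 in control and 0.0172 in CHERP-depleted cells, and the median absolute difference between the means of the siRNAs was 0.0192. A difference of more than 0.1 was seen at 122, of which 3 passed the test.

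The 4 introns with III belonged to WRAP53, MARS, AKAP8L and IPO4. The increase was largest in WRAP53, which encodes a subunit of the telomerase holoenzyme, at an 86-nt intron of the 5′ UTR (chr17:7591880-7591965, first of 10). The level was 0.23 and 0.283 in control cells and 0.625 and 0.566 in CHERP-depleted cells. The groups were well apart, with a difference of 0.34 and an FDR of 0.000381. In the cytoplasm the levels were 0.28 and 0.265 and then 0.534 in both libraries, again apart, though on 10 to 20 inclusion reads a library and with an FDR of 0.525.

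In AKAP8L, a nuclear A-kinase anchoring protein, the 102-nt intron 4 of 14 (chr19:15514367-15514468) had levels of 0.494 and 0.392 in control whole cells and 0.687 and 0.752 after CHERP depletion. The difference was 0.277 and the FDR 0.0429. It is the only one of the 4 that holds a shorter listed intron, of 97 nt, but that one had 0 and 2 skipping reads in control cells and 0 and 1 after depletion, beside 50 to 66 inclusion reads at the 102-nt intron in a library. The cytoplasm held 1 inclusion read, in a CHERP siRNA library, against 3 to 17 skipping reads in a library.

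In MARS, methionyl-tRNA synthetase, the 97-nt last intron rose from levels of 0.0394 and 0.021 to 0.0654 and 0.0837. The FDR was 0.0305, and the libraries of the siRNAs were also apart in the cytoplasm, at 0.0201 and 0.029 against 0.0492 and 0.0622 (FDR 0.105). MARS held 6 short introns, and no other passed the test. The other 5 ran from a mean control level of 0.00318 to 0.995, with FDRs between 0.504 and 0.971. The highest, of 109 nt, holds a 78-nt intron with 304 and 357 skipping reads in control libraries, against 163 and 189 inclusion reads at the longer one.

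IPO4, an importin, rose at its 80-nt first intron, from no inclusion read beside 88 and 40 skipping reads to 12 and 1 beside 38 in each library. The levels in the CHERP siRNA libraries, 0.169 and 0.0166, were thus far apart, and 3 inclusion reads would have put the control libraries at 0.0214 and 0.046.

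The 10 introns with DII lay in VDAC2, C17orf76-AS1, HNRNPH1, EIF5A, ITGA3, LZTR1, NDUFV1, CTPS1, EEF1A1 and ACTB. Of the 10, 9 lie between coding exons, as do 1012 of the 1180 short introns tested in whole cells. The exception, C17orf76-AS1, is a host gene of small nucleolar RNAs named SNHG29 in GENCODE 44, with a 113-nt first intron of 5 (chr17:16342729-16342841) in which no small RNA lies. Its levels were 0.132 and 0.134 in control whole cells and 0.0567 and 0.0631 in CHERP-depleted ones, with an FDR of 0.000852. The libraries of each siRNA lay close together and the groups well apart.

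VDAC2, an anion channel of the outer mitochondrial membrane, had the lowest FDR (0.000319) at intron 5 of 9. The level was 0.0245 and 0.0457 in control cells and 0.00998 and 0.0124 in CHERP-depleted cells. Both values after depletion lay below both control values, though the control libraries differed by nearly as much as the means.

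At HNRNPH1, a splicing factor that binds runs of G, the 56-nt intron 7 of 13 had levels of 0.122 and 0.147 in control cells. In CHERP-depleted cells it had 0.0583 and 0.0756, a decrease with an FDR of 0.00347. A pair of 92 and 101 nt in the same gene, which share 1 end, had mean levels of 0.128 and 0.973 in control cells and 0.121 and 0.961 in CHERP-depleted ones, and neither passed the test. The 101-nt form had 214 and 207 inclusion reads in control libraries beside 255 and 220 skipping reads of the 92-nt form, so its level cannot be read as retention.

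EIF5A, a translation factor that carries the amino acid hypusine, fell at a 96-nt intron, from levels of 0.0265 and 0.0219 to 0.00799 and 0.0089 (FDR 0.0152). The inclusion reads were 38 and 31 in control libraries and 58 and 59 in CHERP libraries, whereas the skipping reads were 837 and 830 and then 4320 and 3943. More reads of both forms were thus counted, with the larger increase in the spliced form. An exon of GPS2 lies on the opposite strand over this intron, and the strand setting of the counting is not given in the sources used here.

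ITGA3, the alpha 3 chain of an integrin, fell from 0.107 and 0.147 to 0.0285 and 0.0376 (FDR 0.0306), and LZTR1, an adaptor of a ubiquitin ligase for RAS proteins, from 0.134 and 0.291 to 0.0302 and 0.0559 (FDR 0.0316). NDUFV1, a subunit of respiratory complex I, fell from 0.0955 and 0.183 to 0.0714 and 0.0634 with the same FDR of 0.0316. For LZTR1 and NDUFV1 the control libraries differed from each other by more than the lower of them differed from the CHERP libraries.

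CTPS1, which makes CTP, had levels of 0.119 and 0.107 and then 0.0487 and 0.0729 (FDR 0.0379). The cytoplasmic libraries stood in the same order, at 0.0402 and 0.0291 and then 0.00885 and 0.0166 (FDR 0.424). ITGA3 was also lower in both cytoplasmic CHERP libraries, at 0.00473 and 0.0121 against 0.0479 and 0.0658 (FDR 0.156). LZTR1 was lower there too, at 0 and 0.0424 against 0.0758 in both control libraries (FDR 0.759). The decreases of NDUFV1 and HNRNPH1 were not seen in the cytoplasm. NDUFV1 had 0.00389 and 0.00685 and then 0.00322 and 0.0102 (FDR 0.942). HNRNPH1 had 0 and 0 and then 0.00414 and 0 (FDR 0.796). The introns of VDAC2, EIF5A, EEF1A1 and ACTB were not listed in the cytoplasm.

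The deepest intron of the group, 108 nt in EEF1A1, passed the test with a difference of only -0.00112, from 0.00203 and 0.00293 to 0.0015 and 0.00123 (FDR 0.0398). ACTB, cytoplasmic beta-actin, went from 0.0298 and 0.0286 to 0.0113 and 0.0151 at a 134-nt intron between coding exons (FDR 0.0419). The control libraries gave similar levels there from unlike numbers of reads, with 2647 skipping reads in the first and 492 in the second. GENCODE names 12 pseudogenes after ACTB.

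**Figure D2:**
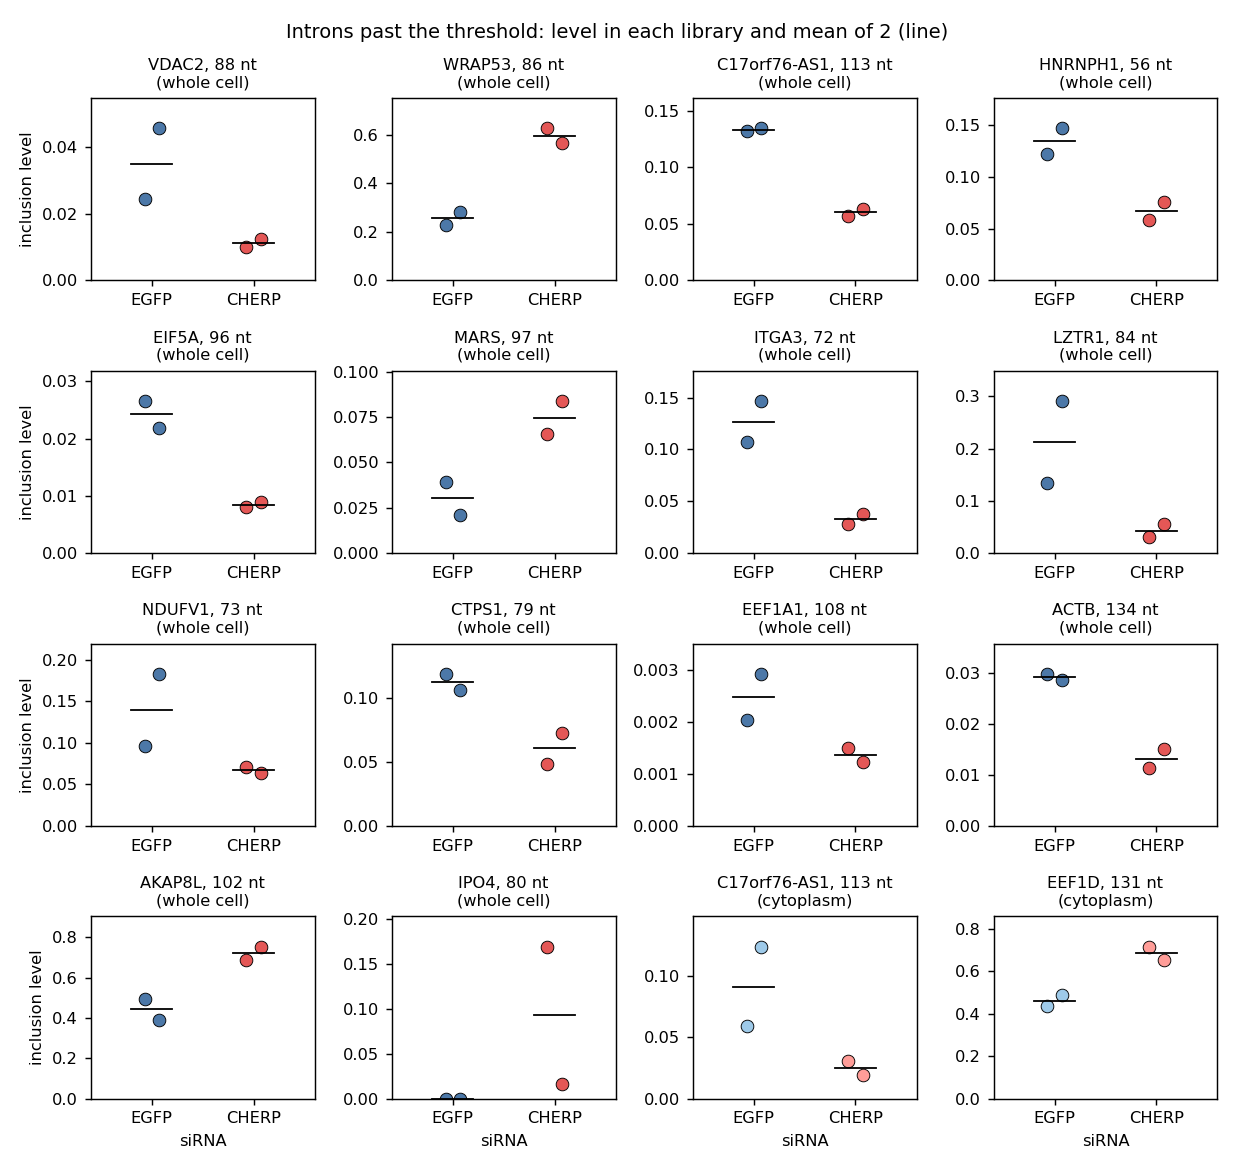
Inclusion level in each library for the 14 introns past the threshold in whole cells and the 2 in the cytoplasm, in panels with their own linear axis that starts at 0. Points are libraries, horizontal lines the mean of 2, and in each of the 16 panels the EGFP and CHERP siRNA libraries do not overlap, as was so for 34.9% of the 990 introns with 10 or more reads in whole cells and 29% of the 400 in the cytoplasm, while the 2 CHERP libraries of IPO4 lie far apart.

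These calls leaned on single libraries. All 14 lost the threshold without the first CHERP siRNA library, 10 without the second, 4 without the first control library and 10 without the second, and no difference changed sign. Without the second control library the difference shrank to -0.0911 in LZTR1, -0.0282 in NDUFV1, -0.0133 in VDAC2 and -0.00067 in EEF1A1, while without the first it grew to -0.115 in NDUFV1. IPO4 stood at 0.0166 without the first CHERP library and at 0.169 without the second. With limma on log2 odds, which gives weight to the spread of each intron, none of the 14 and no RI event of any length passed, and 107 short introns had an unadjusted p under 0.05, against 71 with the quasi-binomial test.

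The abundance of the host gene was taken from the reads on its exon events. These were bulk libraries, in which a change per cell and a change in the mix of cells cannot be told apart. Of the 10 genes with DII, 5 were also more abundant in CHERP-depleted whole cells (limma, adjusted p under 0.05) and none was less abundant, where 13.3% of 9660 genes were higher and 13.7% lower. They were EIF5A with a log2 fold change of 2.26 ± 0.12 (SE, adjusted p = 0.00794), C17orf76-AS1 with 1.03 ± 0.16 (0.017), LZTR1 with 0.66 ± 0.14 (0.0298), VDAC2 with 0.60 ± 0.14 (0.0375) and CTPS1 with 0.57 ± 0.14 (0.0421). ITGA3 (0.75, adjusted p = 0.0645) and HNRNPH1 (0.45, 0.0567) did not pass, nor did NDUFV1, EEF1A1 and ACTB. Without either CHERP siRNA library EIF5A alone of the 5 kept its call, at log2 fold changes of 2.26 and 2.27. C17orf76-AS1 then had 0.95 and 1.13 (adjusted p = 0.0968 and 0.0728), and the adjusted p of LZTR1, VDAC2 and CTPS1 lay between 0.168 and 0.267.

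None of the 4 genes with III passed in whole cells. AKAP8L had a log2 fold change of -0.88 ± 0.29 (adjusted p = 0.0864), WRAP53 of -0.37 ± 0.14 (0.124), MARS of 0.45 ± 0.12 (0.0569) and IPO4 of 0.02 ± 0.19 (0.935). Among 7293 genes in the cytoplasm, 19.1% were higher and 19.9% lower. There 6 of 9 measured genes with DII were more abundant and none was less, AKAP8L was less abundant (-0.84, adjusted p = 0.0293) and MARS more abundant (0.41, 0.0436). Of the 749 genes with a short intron in the whole-cell table and a measured abundance, 10.8% were higher and 11.6% lower.

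In the cytoplasm 2 of 534 short introns passed the test, 1 in each direction. Of the 1696 RI events there, 0.354% were called higher and 1.77% lower, against 0.187% each way in the short introns. The intron with higher inclusion lay in EEF1D, a subunit of the elongation factor that recharges EEF1A1, at chr8:144663325-144663455 (131 nt, intron 4 of 7). Its levels were 0.436 and 0.488 in control cytoplasm and 0.715 and 0.653 with CHERP siRNA, well apart (FDR 0.000506). In whole cells the levels were 0.603 and 0.604 and then 0.676 and 0.587, which overlapped (FDR 0.859). It holds a 74-nt listed intron, which had 1269 and 905 skipping reads in control whole cells and a mean level of 0.00554, beside 404 and 283 inclusion reads of the 131-nt intron. The 74-nt event is not in the cytoplasm table, so a change in retention and a change between the splice sites cannot be told apart there. Among the 468 introns with no shorter one inside, none was called higher and 1 lower. An exon of another annotated gene lies on the opposite strand over this intron.

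The intron with lower inclusion was again that of C17orf76-AS1, with 0.0591 and 0.124 in control cytoplasm and 0.031 and 0.0191 in CHERP-depleted cytoplasm (FDR 0.0375). It lost the threshold without each library in turn, and the difference was -0.034 without the second control library against -0.0664 with all. EEF1D lost it without the first CHERP or the first control library (FDR 0.184 and 0.088), with differences between 0.191 and 0.253.

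The 253 short introns with a lower and the 147 with a higher mean level in CHERP-depleted cytoplasm had a median difference of -0.00265, close to the -0.00222 of all 1239 RI introns with such reads. A test of the siRNA effect between the fractions found none of the 500 short introns of both tables at an FDR under 0.05 by the quasi-binomial test. All RI events gave 0.188%, and 13 short introns had an unadjusted p under 0.05. The lowest FDR, 0.354, was shared by EEF1D and STX4, a syntaxin of the plasma membrane, so the increase of EEF1D was not shown to differ between the fractions.

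The fractions themselves differed. The median over the 356 short introns that average 10 or more reads in every group was 0.0508 and 0.0425 in the control whole-cell libraries and 0.0200 and 0.0219 in the control cytoplasm. With CHERP siRNA it was 0.0357 and 0.0432 against 0.0123 and 0.0145. All 4 cytoplasmic libraries lay below all 4 whole-cell ones, also over the 317 that hold no shorter listed intron (0.0408 and 0.0190 on average in control cells), and an exact two-sided permutation test over the libraries gave p = 0.0286, the smallest that 4 against 4 allow. The siRNAs gave p = 0.667 in whole cells and p = 0.333 in the cytoplasm by the same exact test, where 2 against 2 allow no less than 0.333.

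The effective length of the skipping form was 144 in whole cells and 73 in the cytoplasm, so the reads of the fractions were not equally long. A difference between fractions and a difference between read lengths cannot be told apart here, even though the level divides reads by effective length.

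In whole cells the short introns had a lower median than the 581 introns of 150 nt to under 1000 nt in each of the 4 libraries, with a mean difference of -0.0314 (-0.0389 to -0.0194, SD 0.0091), and in the cytoplasm the difference was -0.000368, from -0.00313 to 0.00178. An exact paired permutation test over the libraries gave p = 0.125 and p = 0.875, where 4 pairs allow no less than 0.125, and the libraries share the same introns. From whole cells to cytoplasm the median fell by 0.0259 for the short introns and by 0.0569 and 0.130 for the middle and long classes, each with the exact permutation p = 0.0286. The classes thus stood further apart in whole cells than in the cytoplasm, a difference that was not tested.

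**Figure D3:**
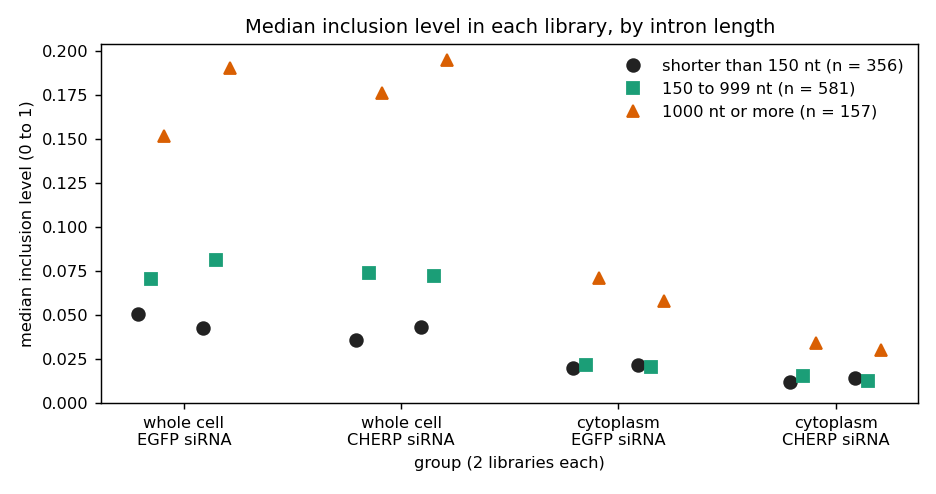
Median inclusion level in each of the 8 libraries, for the retained introns of each length class that average 10 or more reads in every group (n in the key). Each point is 1 library, and the short introns lie lowest in whole cells, while in the cytoplasm they lie at the level of the introns of 150 nt to under 1000 nt.

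Single introns were tested between the fractions in control cells. Of the 500 short introns in both tables, 66 had a lower and 14 a higher level in the cytoplasm at an FDR under 0.05. Among all 1599 RI events compared, 25.1% were lower and 2.75% higher, and the shares of the short introns were 13.2 and 2.8%. Over the 441 that hold no shorter listed intron, 59 were lower and 9 higher, or 13.4 and 2.04%. With CHERP siRNA, 90 were lower and 13 higher, where 32.2 and 2.69% of all were, and 43 and 10 introns passed in the same direction with both siRNAs. The counts fell to 18 and 5 without the first control cytoplasmic library and to 14 and 3 without the second.

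Among the introns with the lowest FDR, 5 were lower in the cytoplasm, in RRM2, NDUFV1, PSRC1, TRAF4 and HNRNPH1. The 90-nt intron of PSRC1, a spindle protein, had levels of 0.552 and 0.519 in control whole cells but 0.0388 and 0.0555 in the cytoplasm (FDR 1.31e-09). The 69-nt intron of TRAF4, a signalling adaptor, went from 0.185 and 0.226 to 0.0222 and 0.0137 (FDR 6.1e-09). In RRM2, a subunit of ribonucleotide reductase, the 85-nt first intron went from 0.105 and 0.0429 to 0.00125 and 0.00148. The whole-cell libraries of RRM2 differed widely, yet both lay far above the cytoplasm (FDR 4.13e-31).

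Of the introns that passed the test between the siRNAs in whole cells, those of NDUFV1, HNRNPH1, AKAP8L and CTPS1 were lower in the control cytoplasm. Those of WRAP53, C17orf76-AS1, MARS, ITGA3 and LZTR1 were compared as well and did not pass. Among all short introns compared, 13.2% were lower. Both comparisons use the same control whole-cell libraries and are not independent, and the overlap was not tested. The NDUFV1 intron had levels of 0.00389 and 0.00685 in control cytoplasm (FDR 7.23e-11 against whole cells), and the 56-nt intron of HNRNPH1 had no inclusion read beside 60 and 101 skipping reads (FDR 1.43e-07), where 3 reads would have given 0.0275 and 0.0165. AKAP8L had none beside 12 and 17 (FDR 4.13e-06), so 3 reads would have given 0.0944 and 0.0686 against whole-cell levels of 0.494 and 0.392. CTPS1 was lower as well (FDR 0.000517). The introns of NDUFV1, HNRNPH1 and AKAP8L thus had few or no inclusion reads in the control cytoplasm.

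In the other direction, 5 of the 14 introns called higher hold a shorter listed one, in RBM8A, LSR, IL32, RPP21 and ACADVL, and their calls were not read as retention. The inner intron of IL32 is no RI event and has no counts to compare. That of RPP21 had 3 and 3 skipping reads in control cytoplasm, beside 9 and 9 inclusion reads of the longer intron. The 134-nt intron of RBM8A went from 0.0195 and 0.0509 in control whole cells to 0.804 and 0.747 in control cytoplasm (FDR 6.02e-40). With CHERP siRNA it had 0.0804 and 0.0628 against 0.754 and 0.673. The inclusion reads were 6 and 12 in whole cells and 128 and 109 in the cytoplasm, while the skipping reads were 156 and 116 and then 11 and 13. The listed intron that ends 3 nt earlier, of 131 nt, had 1211 and 1214 skipping reads in whole cells and 137 and 124 in the cytoplasm, with mean levels of 0.00323 and 0.00404. The inclusion reads of the 134-nt intron were thus about as many as the skipping reads of its neighbour in the cytoplasm and far fewer in whole cells. LSR, with a pair of 100 and 97 nt, stood alike, with 35 and 39 inclusion reads beside 35 and 41 skipping reads of the shorter form in the cytoplasm, and 1 and 0 beside 56 and 51 in whole cells. An exon of LIX1L-AS1 lies on the opposite strand over the RBM8A intron.

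The others hold no shorter listed intron. RPL10, a protein of the large ribosomal subunit, rose at a 90-nt intron, from 0.0037 and 0.00347 to 0.111 and 0.102 (FDR 3.07e-45). Here the skipping reads were 15891 and 20655 in whole cells but 318 and 372 in the cytoplasm, a far larger drop than that of all RI reads, while the inclusion reads stayed at 96 and 117 and then 89 and 94. GENCODE names 19 pseudogenes after RPL10.

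HNRNPM, another splicing factor, rose from 0.0721 and 0.0828 to 0.201 and 0.223 (FDR 4.1e-12). MRPL52, a protein of the mitochondrial ribosome, rose from 0.31 and 0.204 to 0.759 and 1 (FDR 8.03e-05), on 24 and 20 inclusion reads with 3 and 0 skipping reads. RPS21, of the small ribosomal subunit, rose from 0.0271 and 0.0352 to 0.0504 and 0.0529 (FDR 0.000988). Without the second control cytoplasmic library MRPL52 and RPS21 missed the threshold, with differences of 0.502 and 0.0193 and FDRs of 0.0742 and 0.0581.

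By size alone, other introns differed more than RBM8A. In IMP4, a protein of the small subunit processome, a 123-nt intron of the 5′ UTR went from a mean level of 0.181 to 0.958 (FDR 0.00518). In IDH3B, a subunit of isocitrate dehydrogenase, a 115-nt intron of the 3′ UTR went from 0.926 to 0.0573 (FDR 0.00174). Both were chosen after their values were seen.

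**Figure D4:**
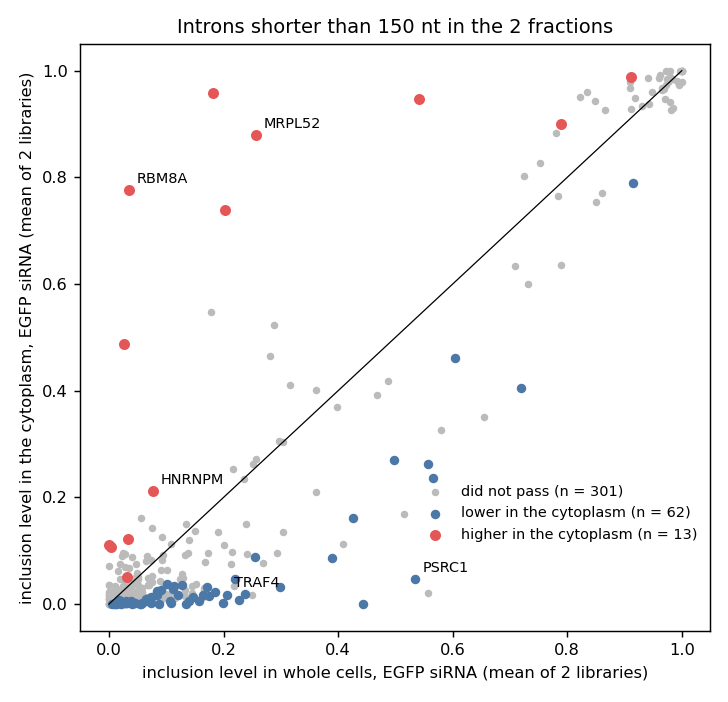
Inclusion level in control whole cells (horizontal axis) and in control cytoplasm (vertical axis), each the mean of 2 libraries, for the 376 retained introns shorter than 150 nt that average 10 or more reads in both fractions. The line marks equal levels, colours mark the 62 introns called lower and the 13 called higher in the cytoplasm, and most called introns sit along the bottom of the plot while RBM8A, whose inclusion reads were about as many as the skipping reads of the intron inside it, and MRPL52 are among 4 near the top left.

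Apart from these, the order of the introns was alike in the fractions. Over 376 introns with enough reads in both, Spearman's rho between the control levels was 0.753, a description over introns that share genes and libraries. Of 61 introns with a level over 0.5 in whole cells, 52 were so in the cytoplasm too, and of the 45 that hold no shorter listed intron 38 were. Introns that keep the frame without a stop had the smallest median difference between the fractions, at -0.00196 for 47 introns. It was -0.0103 for 132 introns that shift the frame and bring a stop, -0.0132 for 87 that shift it without a stop and -0.0136 for 72 that bring a stop in frame. In the same order, their control levels in whole cells had medians of 0.0774, 0.032, 0.0565 and 0.0312. In the cytoplasm the medians were 0.0476, 0.016, 0.0165 and 0.0176. The introns that keep the frame without a stop thus had the highest median in both fractions. These differences between classes were not tested.

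Groups of genes were described by their short introns, as counts and medians beside all members of the group. Genes of splicing factors held 29 short introns in 18 genes, and 1 of the 28 tested in whole cells passed, that of HNRNPH1, with lower inclusion. Their median control level was 0.0451 over 26 introns, against 0.0534 over all 990, and the median difference between siRNAs was -0.0006. In the cytoplasm none of 17 passed between siRNAs, and 4 of 16 were lower and 1 higher than in whole cells, where 25.1 and 2.75% of all RI events and 13.2 and 2.8% of the short introns were. PTBP1 held 4 of these introns, with mean control levels of 0, 0.0028, 0.0145 and 0.992, the latter at a 102-nt intron with 108 and 32 inclusion reads that holds a 93-nt one with 108 and 36 skipping reads.

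Translation factors held 16 introns in 12 genes with a median level of 0.0171 over 15. EIF5A and EEF1A1 passed with lower inclusion in whole cells, and EEF1D with higher inclusion in the cytoplasm. Between the fractions 5 of 6 were lower in the cytoplasm, where 25.1% of all RI events and 13.2% of the short introns were, a share of few introns chosen with results known. Among them were EIF4A1, the helicase of the cap-binding complex, with mean levels of 0.0112 and 0.00289, and EIF4G1, its scaffold, with 0.0127 and 0. Cytosolic ribosomal proteins held 23 introns in 19 genes, and none of 22 in whole cells or 16 in the cytoplasm passed between siRNAs. Their median control level was 0.0157 over 22 introns in whole cells, yet the 63-nt intron of RPL8 stood at 1.

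Genes of DNA replication and repair held 22 introns in 19 genes and those of mitosis 22 in 14, and none passed between siRNAs in either fraction. The median control levels were 0.0612 and 0.0526 over 18 introns each. The MCM7 intron, in a subunit of the replicative helicase, had mean levels of 0.0655 and 0.0314 and an FDR of 0.154. Mitochondrial ribosomal proteins held only 3 introns in 3 genes, of MRPL2, MRPL4 and MRPL52, with no call between siRNAs.

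In the genes with the most short introns the listed levels covered a wide range, but the highest in RHOT2 and TECR belonged to introns that hold a shorter one. The 9 of RHOT2 ran from 0.00839 to 0.965 in control whole cells, with a median of 0.0545, and the 7 of TECR from 0.00351 to 0.910, with a median of 0.0164. In RHOT2 the high values belonged to a 114-nt intron of the 3′ UTR, at 0.931 and 1, and to a 90-nt intron between coding exons, at 0.687 and 0.874, while the 76-nt coding intron had 0.0268 and 0.00571. The 114-nt and 90-nt introns share an end with listed introns of 82 and 73 nt, whose mean levels were 0.150 and 0.0199. In TECR the highest value belonged to a 132-nt intron that holds one of 97 nt at 0.0164. None of these introns passed the test between siRNAs, with a lower mean after CHERP depletion in 7 of 9 and 4 of 7.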

How the data were processed

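Poly(A)+ RNA of whole cells and of the cytoplasm was sequenced from U2OS cells, with 2 libraries for each siRNA. The submitters' processing notes name STAR 2.5.2b and RSEM 1.2.25. The authors' deposited rMATS tables (GENCODE 19, hg19) give counts of inclusion and skipping reads for each event, on junctions and on the intron, with effective lengths. The rMATS version and the strand setting of the counting are not given in the sources used here. Columns of the authors' own p-values, FDRs and differences, and 16 columns of inclusion levels, were not used. Nor were the tables of mutually exclusive exons and of gene differences.

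Members were RI introns under 150 nt, 1 event per intron, and all were tested. An intron was said to hold a shorter listed intron where an intron of an RI, A5SS or A3SS event of either fraction lay within it on the same strand, a split chosen after seeing the data. The members, gene lists and tests were chosen with earlier results of these data known. Counts of both forms were compared between groups with a quasi-binomial model whose dispersion, at least 1 and following read number, was moderated by limma (3.58.1, under R 4.3.3). FDRs are Benjamini-Hochberg values over all RI events of a table. The estimated prior degrees of freedom were infinite, so the spread of a single intron had no weight in its own test. Between fractions, effective lengths entered as an offset. Host abundance summed reads per effective length over the SE, A5SS and A3SS events of a gene (mean of at least 20 reads), tested with limma on log2(value + 0.01), so folds of low genes are understated. Introns were annotated with GENCODE 44 on GRCh37. The scripts were tested on simulated data. Named introns were those past the threshold between siRNAs, the 5 with most reads, the 5 highest and 5 lowest levels among those averaging 100 or more reads, the 5 lowest FDRs per direction between fractions, and the 3 shortest. Others are marked as chosen after their values were seen, and those of the gene lists and of genes with most members are examples. The libraries of a cell in the tables carry no replicate number. Intervals and limits cover counting error only.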

Additional observations from a re-analysis of the deposited data

How the results depend on the processing

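No paired analysis was possible because the tables give the 2 libraries of a group without a replicate number. No difference named for a single intron changed direction under any alternative run. The counts between siRNAs were small and moved with the settings. In whole cells, 4 introns were called higher and 10 lower, and these counts became 1 and 4 with the dispersion estimated from events whose rarer form had 10 or more reads (chosen after seeing the data), 0 and 0 with limma on log2 odds, 2 and 1 with a difference of at least 0.1, and 8 and 16 with a length limit of 200 nt. Without 1 library they ranged from 0 to 3 and from 0 to 10. In the cytoplasm, 1 was called higher and 1 lower. The counts were 2 and 5 with a dispersion without a trend, 0 and 0 with limma on log2 odds and with a length limit of 100 nt, 2 higher with a limit of 200 nt, and, for lower calls, 4 with the rarer-form dispersion, 3 among introns averaging 10 or more reads and 0 with a difference of at least 0.1. Among introns that hold no shorter listed intron (chosen after seeing the data) the higher calls were 0. Without 1 library they ranged from 0 to 1 and from 0 to 0.

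Between the fractions of control cells, 14 higher and 66 lower calls became 8 and 39 with the rarer-form dispersion, the higher calls became 9 among introns that hold no shorter listed intron, and the lower calls became 36 without the offset for effective length. Without 1 library they ranged from 3 to 16 and from 14 to 74. The medians of control and CHERP-depleted whole cells and of control and CHERP-depleted cytoplasm (0.0466, 0.0394, 0.0210 and 0.0134) became 0.0267, 0.0260, 0.0105 and 0.00562 among introns averaging 50 or more reads, 0.0760, 0.0670, 0.0478 and 0.0292 with reads not divided by effective length, 0.0371, 0.0335, 0.0164 and 0.00936 between coding exons only, and 0.0408, 0.0355, 0.0190 and 0.0102 among introns that hold no shorter listed one. The cytoplasm stayed below whole cells in each. Except where fewer introns enter, the cause of these moves was not tested. Other choices of 1 event per intron were not run, since no intron had several events to choose from. The median number of reads was 50.1 in whole cells and 28.8 in the cytoplasm.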
